A study of Drosophila melanogaster with 9 samples.

Results

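The nuclear genes of oxidative phosphorylation were followed in the ring gland, the compound endocrine organ of fly larvae that holds the ecdysone-making prothoracic gland, the corpora allata and the corpora cardiaca. The genes were those whose KEGG pathway annotation in the deposited table names oxidative phosphorylation, leaving out the genes of the mitochondrial genome (names starting with mt:) and the vacuolar proton pump (names starting with Vha). The rule gave 85 of the 14409 genes in the table and used no measured value. By the KEGG orthologue of each gene they comprise 39 genes of complex I, 6 of complex II, 7 of complex III, 13 of complex IV, 4 assembly factors of complex IV and 16 of the ATP synthase. The vacuolar pump accounted for 28 of the 125 annotated rows and the mitochondrial genome for 12.

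The animals were larvae of the white-eyed laboratory stock w1118 of Drosophila melanogaster, in 3 groups: starved after the nutrient restriction checkpoint named in the series title (post-NRC starvation), starved before it (pre-NRC starvation) and fed (feeding). Each group had 3 libraries, labelled biological replicates, and each was a pool of about 1200 dissected glands, so the tests weigh differences against the spread among pools. The sources used here give neither age nor length of starvation for the starved groups, the columns of the feeding group carry 108 h in their names, and starvation and age cannot be told apart. Libraries held 29123939 to 36131089 counts.

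Oxidative phosphorylation couples the oxidation of NADH and succinate to the making of ATP in the inner mitochondrial membrane. Complex I (NADH dehydrogenase) and complex II (succinate dehydrogenase) pass electrons to coenzyme Q, complex III passes them to cytochrome c, and complex IV (cytochrome c oxidase) to oxygen. Complexes I, III and IV pump protons, and the ATP synthase lets them flow back through its rotor to drive ATP synthesis. Each complex except complex II also contains subunits made from the mitochondrial genome. In the prothoracic gland mitochondria also house the last steps of ecdysone synthesis, among them the P450 enzymes dib and sad.

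Replicate 3 of each group stood apart from the other two. Among the 63 tested genes outside the low-level duplicates described below, the median log2 difference of replicate 3 from replicates 1 and 2 was −0.93 for post-NRC, −0.35 for pre-NRC starvation and −0.80 for feeding, with 62, 53 and 61 genes below 0. Over all 10883 genes tested the medians were −0.06, −0.00 and 0.00. Over all genes that difference ran with exon length, with Spearman's rho of 0.43 in post-NRC starvation, 0.13 in pre-NRC starvation and 0.30 in feeding across 10274 genes, which share the libraries and are not independent. Within the 63 genes the rho values were 0.24, 0.08 and 0.15. The part of transcript length or RNA quality in the results below was not tested. Levels are given in CPM, that is counts scaled to library size and to the TMM scaling factor of each library. The markers of the prothoracic gland (phm, dib, sad, nvd, sro and spok) summed to 17800 to 22900 CPM in post-NRC starvation. They summed to 3650 to 11200 CPM in pre-NRC starvation and 26100 to 36400 CPM in feeding. The mean CPM of 6 of 6 was lower in pre-NRC starvation than in feeding. The markers of the corpora cardiaca (Akh, amon and Lst) summed to 4710 to 9110, 8740 to 18000 and 1530 to 4840 CPM in the same order. The mean CPM of 3 of 3 was higher in pre-NRC starvation than in feeding. In bulk samples fewer cells of a type and less RNA per cell cannot be told apart.

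Summed over a complex, the levels in CPM separated pre-NRC starvation from feeding in complex IV and the ATP synthase. The 13 ATP synthase genes outside the duplicates summed to 4620, 3980 and 4030 CPM in replicates 1, 2 and 3 of pre-NRC starvation, against 9650, 9830 and 6250 CPM in feeding. In post-NRC starvation they summed to 7210, 6670 and 3960 CPM. The 3 pre-NRC libraries lay below all 3 feeding libraries. In CPM, post-NRC replicate 3 lay just below the lowest pre-NRC library. As a share of all counts, without TMM factors, it took 0.445%, against 0.424%, 0.399% and 0.442% in pre-NRC replicates 1, 2 and 3. Its place against the pre-NRC libraries thus depended on the scaling. The 7 complex IV genes summed to 1540, 1170 and 1140 CPM in pre-NRC starvation, against 3180, 3290 and 1890 CPM in feeding, and to 2540, 2250 and 1290 CPM in post-NRC starvation. For the 33 complex I genes the sums were 3300, 2670 and 2310 CPM in pre-NRC starvation, against 5000, 5110 and 3110 CPM in feeding. In CPM feeding replicate 3 thus overlapped the pre-NRC range. As a share of all counts it took 0.324%, above the 0.303%, 0.268% and 0.253% of pre-NRC replicates 1, 2 and 3. All 64 genes outside the duplicates took 1.30% ± 0.29 of all counts in post-NRC starvation, 0.924% ± 0.047 in pre-NRC starvation and 1.70% ± 0.36 in feeding (SD, n = 3 each).

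**Figure D1:**
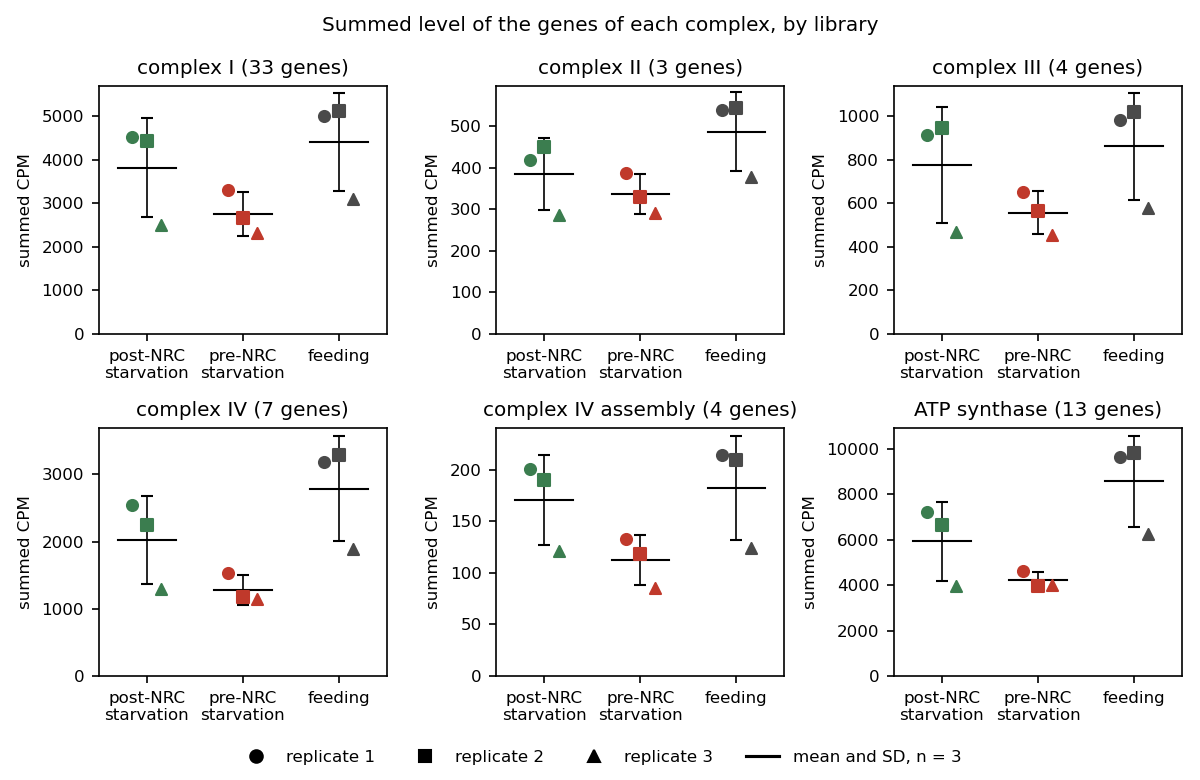
Summed CPM of the genes of each complex outside the low-level duplicates, by library, with the mean and SD of 3 libraries per group (linear axes from 0). In complex IV and the ATP synthase the 3 pre-NRC libraries lie below the 3 feeding libraries, and replicate 3 (triangles) is the lowest library of post-NRC starvation and of feeding in all 6 panels.

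Levels per length were compared in FPKM (fragments scaled to gene length and library size). The ATP synthase and complex IV genes were the most abundant, with a median of the group means of 519 and 510 FPKM in feeding. Complex III followed at 194 FPKM, complex II at 133, complex I at 121 and the assembly factors of complex IV at 31.5 FPKM. The highest single gene was levy (COX6A, a complex IV subunit), with 701 ± 190 FPKM in post-NRC starvation, 405 ± 41.2 FPKM in pre-NRC starvation and 884 ± 289 FPKM in feeding (SD, n = 3 each). Next in feeding came CG1746 (ATPsynC, the c subunit of the rotor ring) at 818 ± 241 FPKM and CG4692 (ATPsynF, subunit f of the membrane part) at 817 ± 318 FPKM. The SD is over libraries and does not measure the difference between genes of the same library. In feeding replicates 1, 2 and 3 levy had 1010, 1090 and 554 FPKM. CG1746 had 897, 1010 and 547 FPKM and CG4692 979, 1020 and 451 FPKM. Levy was thus above both in each feeding library, while the order of CG1746 and CG4692 changed. CG9603 (COX7A) was next among complex IV genes at 623 ± 175 FPKM.

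In complex I the most abundant were CG32230 (ND-MLRQ, whose mammalian relative NDUFA4 is found with complex IV) at 320 ± 30.1 FPKM in feeding and CG3446 (ND-B16.6) at 292 ± 67.4 FPKM. In feeding replicates 1, 2 and 3 CG32230 had 308, 297 and 354 FPKM and CG3446 330, 331 and 214 FPKM, so their order changed between libraries. In complex III RFeSP, the Rieske iron-sulfur protein, had 273 ± 92.7 FPKM and CG4169 (UQCR-C2, a core protein) 212 ± 56.4 FPKM. In complex II the membrane anchor SdhC had 247 ± 67.4 FPKM, the other anchor CG10219 (SdhD) 133 ± 25.4 FPKM and the flavoprotein SdhA 41.7 ± 1.0 FPKM, the lowest of the 3. Among the assembly factors the copper chaperone CG9065 (Cox17) had 73.4 ± 21.0 FPKM, the heme o synthase CG5037 (Cox10) 41.0 ± 10.7 FPKM and CG31648 (Cox11, which delivers copper) 19.9 ± 6.64 FPKM.

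**Figure D2:**
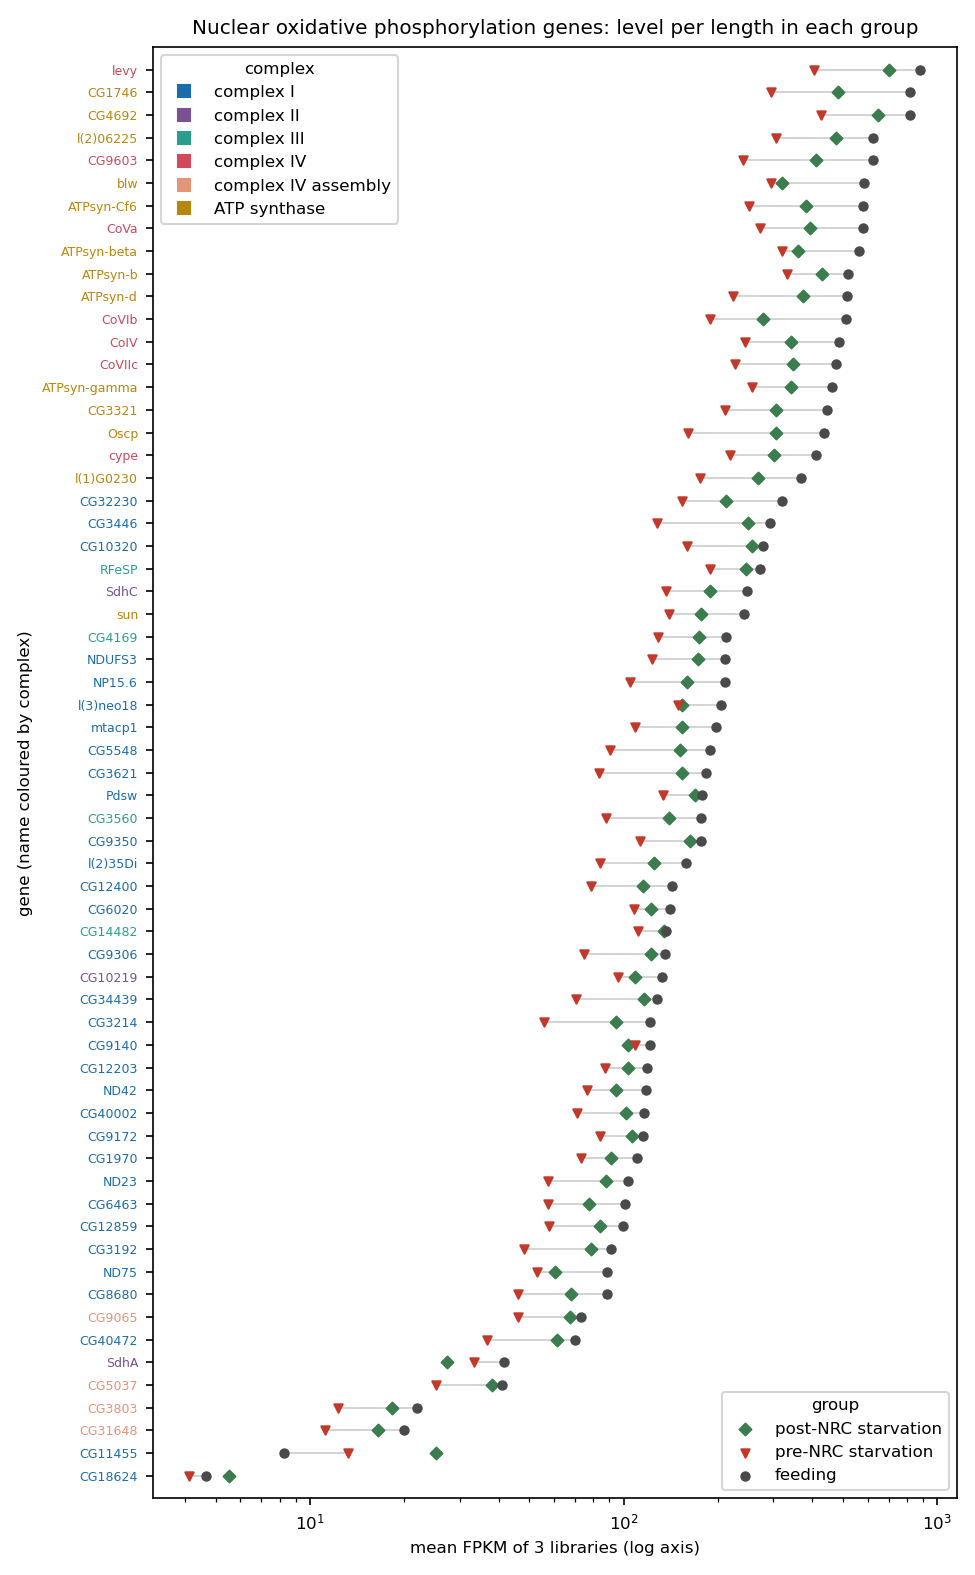
Mean FPKM of 3 libraries (log axis) for the 63 genes outside the low-level duplicates that had a count in feeding, ordered by their level in feeding, with names coloured by complex and grey lines joining pre-NRC starvation to feeding. Feeding is the highest of the 3 groups for each plotted gene except CG11455 and CG18624, at the bottom of the plot.

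Low-level duplicates made up 21 of the 85 genes: 6 of complex I, 3 of complex II, 3 of complex III, 6 of complex IV and 3 of the ATP synthase. They are second copies of a subunit, marked by an L at the end of the current symbol (with a copy number in a few), and such copies are known in flies for expression in the testis. Together they summed to 5.21, 4.09 and 2.41 CPM in post-NRC starvation, 3.07, 9.02 and 5.61 CPM in pre-NRC starvation and 5.16, 3.96 and 3.58 CPM in feeding. The groups overlapped. No duplicate reached a mean of more than 1.70 FPKM in a group, the level of CG10396 (COX4L) in post-NRC starvation. CG11423 (ND-51L1) had 31, 25 and 3 counts in post-NRC starvation, 9, 53 and 35 counts in pre-NRC starvation and 39, 38 and 14 counts in feeding, and CG11913 (ND-49L) had no count in any library. Reads of a duplicate and its parent gene can be hard to separate, and the sources used here do not say how such reads were counted. Only 6 duplicates passed the filter on low counts and 0 of them were called by edgeR in any comparison, with 0 by DESeq2, 0 by limma-voom and 1 at an unadjusted p below 0.05, ms(3)72Dt (ATPsynbetaL) in post-NRC against pre-NRC starvation.

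A further 63 genes passed that filter, all but CG15434 (ND-B8), which had 3 counts in post-NRC replicate 1 and 0 in the other libraries. Of the 85 genes 33 have exons that share bases with another gene, and no strand setting is given for the counts. The exons of CG3560 lie wholly within exons of CG32576 on the opposite strand, and those of CG18624 (ND-MNLL) within CG45089 on the same strand, so the counts of both are uncertain.

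In pre-NRC starvation against feeding, 17 of the 69 genes tested (24.6%) fell and 0 rose by the quasi-likelihood test of edgeR at an adjusted p of 0.05. Over all genes tested 11.5% fell and 16.1% rose. At an unadjusted p below 0.05, 37 had lower values and 0 higher, against 18.3% lower over all genes, and 0 rose by DESeq2 and 0 by limma-voom. The median log2 change was −0.79 against 0.00 over all genes tested, and 63 of the 69 changes were below 0. The 6 others were CG11455 and 5 low-level duplicates. In 34 genes (49.3%) all 3 pre-NRC libraries lay below all 3 feeding libraries, against 23.1% of all genes. With the replicate number as a block 48 genes (69.6%) fell, against 18.8% of all genes, and with replicates 1 and 2 alone 52 (75.4%) fell, against 21.6%.

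The 17 calls rested on single libraries to a large extent. Leaving out feeding replicate 1, feeding replicate 2 or pre-NRC replicate 2 left 2 calls each among 70 genes tested, which were CG1746 and blw. Over all genes 406 of 11281, 387 of 11273 and 406 of 11098 fell in these 3 fits. The share of the 70 genes was thus not above that of all genes. The median log2 change of the 70 genes was −0.70, −0.67 and −0.77 in these fits, against −0.79 with all 9 libraries. The number of calls thus moved more than the fitted changes. Without pre-NRC replicates 1 and 3 there were 7 and 9 calls, without post-NRC replicates 1 and 2 there were 16 and 14, and without feeding replicate 3 and post-NRC replicate 3 there were 28 and 29. In the same order, falls over all genes were 547 of 11170, 1520 of 11072, 1096 of 11295, 1074 of 11260, 1136 of 11297 and 1367 of 11237. Among pairs within a group, replicates 1 and 2 of feeding differed least, and with their counts summed into 1 library 2 genes were called. In that fit 453 of all 11264 genes tested fell. None of the nuclear oxidative phosphorylation genes rose under any of these settings. The largest fitted rise was that of the duplicate CG14508 (Cyt-c1L), with 8, 46 and 16 counts in pre-NRC starvation, against 11, 11 and 7 in feeding (log2 change 1.22, SE 1.34, edgeR adjusted p = 0.526).

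**Figure D3:**
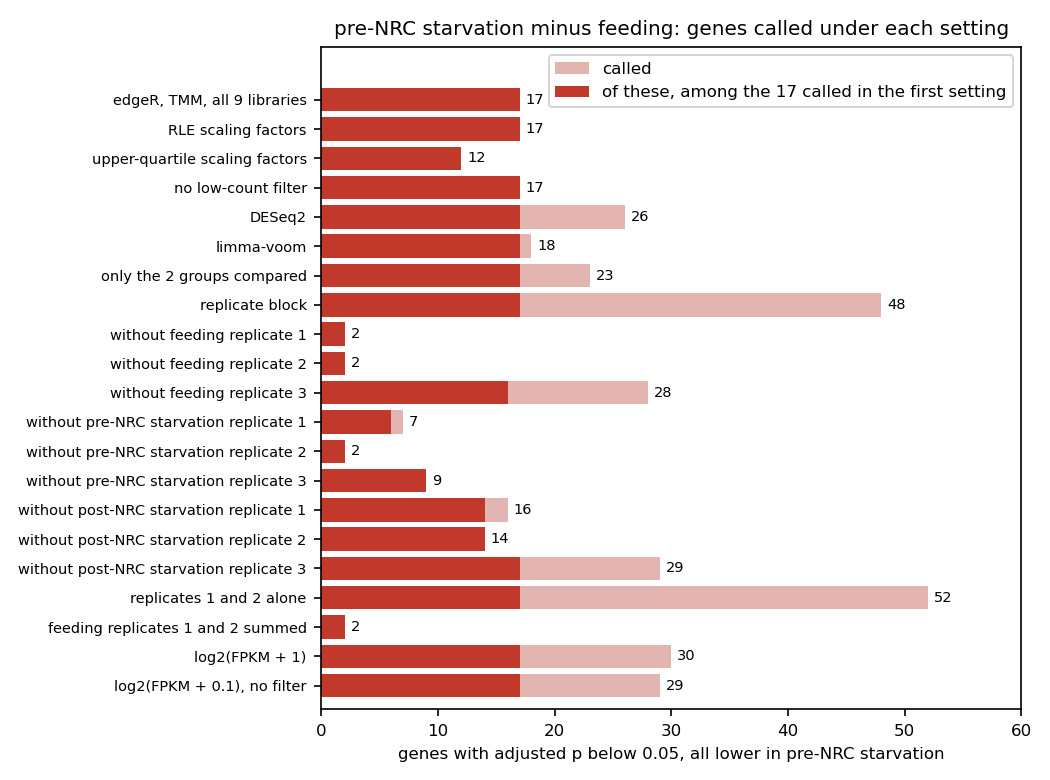
Number of genes called in pre-NRC starvation against feeding under each setting, with the dark part counting those among the 17 called by edgeR on all 9 libraries. The count is 2 without feeding replicate 1, feeding replicate 2 or pre-NRC replicate 2 and 52 with replicates 1 and 2 alone.

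The ATP synthase held 6 of the 17 falls, out of 13 genes tested outside the duplicates, with a median log2 change of −1.0. With the replicate block 13 of 13 fell. For this and the other complexes below, 11.5% of all genes tested fell in edgeR and 18.8% with the replicate block. CG1746 (FBgn0039830, chromosome 3R, 31216145 to 31219630, minus strand, annotation BDGP6.54), the rotor ring subunit, had 529, 437 and 554 CPM in pre-NRC starvation, against 1660, 1750 and 979 CPM in feeding. Every pre-NRC library lay below every feeding library. Its log2 change was −1.53 (SE 0.30, edgeR adjusted p = 0.00913), the largest fall of all these genes, and its adjusted p stayed at or below 0.0421 when any 1 library was left out. Subunit alpha of the catalytic head, blw (FBgn0011211, chromosome 2R, 22799099 to 22802180, plus strand), had 772, 774 and 918 CPM in pre-NRC starvation, against 1710, 1700 and 1440 CPM in feeding. It fell by 0.97 on the log2 scale (SE 0.20, edgeR adjusted p = 0.0104) and its call also held without any 1 library. Its partner ATPsyn-beta had 653, 613 and 747 CPM in pre-NRC starvation, against 1240, 1220 and 1080 CPM in feeding, and just missed the threshold (log2 change −0.81, SE 0.27, edgeR adjusted p = 0.0515, 0.0404 with the replicate block).

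The stator and membrane part, which holds the catalytic head still against the rotor, held 4 of the ATP synthase falls among 7 genes tested. Oscp (ATPsynO), which caps the stator stalk, had 187, 141 and 155 CPM in pre-NRC starvation, against 508, 513 and 274 CPM in feeding. It fell by 1.42 on the log2 scale (SE 0.33, edgeR adjusted p = 0.0164), and lost its call without feeding replicate 1, feeding replicate 2 or pre-NRC replicate 2, with an adjusted p of up to 0.0634. ATPsyn-Cf6 (coupling factor), ATPsyn-d and CG3321 (ATPsynE) fell by 1.22, 1.17 and 1.06. All 3 lost their calls without feeding replicate 1, feeding replicate 2 or any pre-NRC library, ATPsyn-Cf6 and CG3321 also without post-NRC replicate 1 and ATPsyn-d and CG3321 also without post-NRC replicate 2, with adjusted p-values of up to 0.120, 0.119 and 0.138. CG4692 (ATPsynF), among the most abundant, had 385, 325 and 207 CPM in pre-NRC starvation, against 708, 727 and 308 CPM in feeding. Its feeding replicate 3 lay within the pre-NRC range, and its log2 change of −0.93 did not pass (edgeR adjusted p = 0.168, 0.0164 with the replicate block). In the central stalk 0 of 3 genes passed in edgeR and 0 in limma-voom, with 3 at an unadjusted p below 0.05, 1 in DESeq2 and 3 with the replicate block.

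In complex IV 4 of the 7 genes tested outside the duplicates fell, with a median log2 change of −1.07, and 7 fell with the replicate block. In all 7 the pre-NRC and feeding libraries did not overlap. CoVIb (COX6B, chromosome X, 19740537 to 19744335, minus strand) had 166, 134 and 147 CPM in pre-NRC starvation, against 452, 468 and 283 CPM in feeding. It fell by 1.43 (SE 0.33, edgeR adjusted p = 0.0168). CG9603 (COX7A) had 223, 162 and 176 CPM in pre-NRC starvation, against 550, 572 and 312 CPM in feeding, and fell by 1.35 (SE 0.34, edgeR adjusted p = 0.0216). Both lost their calls without feeding replicate 1, feeding replicate 2 or pre-NRC replicate 2, with adjusted p-values of up to 0.0634 and 0.0800. CoIV (COX4), needed early in the assembly of the enzyme, fell by 0.92 (SE 0.25, edgeR adjusted p = 0.0255), and CoVa (COX5A) by 1.07. CoVa lost its call without feeding replicates 1 or 2 or any pre-NRC library, with an adjusted p of up to 0.110. The call of CoIV was lost without feeding replicates 1 and 2 and without pre-NRC replicates 1 and 2, with an adjusted p of up to 0.0974. The most abundant gene, levy, had 314, 242 and 202 CPM in pre-NRC starvation, against 624, 666 and 324 CPM in feeding, and did not pass (log2 change −1.09, SE 0.37, edgeR adjusted p = 0.0549, 0.00960 with the replicate block).

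The 4 assembly factors of complex IV had log2 changes of −0.80 to −0.61. CG3803, the fly relative of the heme a synthase COX15, fell by 0.80 (SE 0.22, edgeR adjusted p = 0.0256), with 23.3, 20.7 and 19.6 CPM in pre-NRC starvation, against 38.9, 43.1 and 29.1 CPM in feeding. Its call was lost without any 1 of the feeding replicates 1 and 2 and the 3 pre-NRC libraries, with an adjusted p of up to 0.103. The other three, CG31648 (Cox11), CG5037 (Cox10) and CG9065 (Cox17), had adjusted p-values of 0.171, 0.102 and 0.272 in edgeR, and of 0.0161, 0.0177 and 0.02 with the replicate block.

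In complex I, which accepts electrons from NADH, 5 of the 32 genes tested outside the duplicates fell, with a median log2 change of −0.76, and 21 fell with the replicate block. Core subunits, which carry the redox groups, held 2 of the falls among 6 tested, the accessory subunits of the membrane arm (the relatives of the human NDUFB subunits) 0 of 12 and the other accessory subunits 3 of 14. With 11.5% of all genes tested falling, counts this small do not set the classes apart. Of the 12 membrane arm genes 6 were below an unadjusted p of 0.05, 1 passed in DESeq2, 0 in limma-voom and 7 with the replicate block. ND75, the iron-sulfur core subunit at the NADH end (chromosome X, 8248651 to 8251687, minus strand), had 155, 183 and 168 CPM in pre-NRC starvation, against 297, 310 and 239 CPM in feeding. The groups did not overlap, and it fell by 0.74 (SE 0.19, edgeR adjusted p = 0.0237). Its call was lost without feeding replicates 1 and 2 and without pre-NRC replicates 1 and 2, with an adjusted p of up to 0.0952. CG1970 (ND-49), the core subunit at the coenzyme Q site, had 164, 145 and 139 CPM in pre-NRC starvation, against 222, 231 and 208 CPM in feeding, and fell by 0.56 (SE 0.16), a call lost without feeding replicates 1 or 2 or any pre-NRC library (edgeR adjusted p up to 0.121).

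Of the accessory subunits, CG3214 (ND-B17.2) had 50.5, 37.6 and 41.8 CPM in pre-NRC starvation, against 104, 113 and 61.6 CPM in feeding, and fell by 1.10 (SE 0.31, edgeR adjusted p = 0.0305). CG32230 (ND-MLRQ) had 92.2, 53.3 and 87.0 CPM in pre-NRC starvation, against 162, 154 and 169 CPM in feeding, and fell by 1.06 (SE 0.29, edgeR adjusted p = 0.0286). Its replicate 3 was the highest of the feeding libraries. CG3214 lost its call without feeding replicates 1 and 2 or any of the 3 pre-NRC libraries, and CG32230 without any of the 3 feeding libraries or pre-NRC replicates 1 and 2, with adjusted p-values of up to 0.108 and 0.0920. CG12400 (ND-B14.5B) fell by 0.89 and kept its call without feeding replicate 3 or post-NRC replicate 3 alone (edgeR adjusted p up to 0.137 otherwise). CG3446 (ND-B16.6), a relative of the human GRIM-19, had 180, 58.5 and 126 CPM in pre-NRC starvation, against 299, 297 and 184 CPM in feeding, and did not pass (log2 change −1.10, SE 0.40, edgeR adjusted p = 0.0677). At the other end CG9140 (ND-51), which carries the NADH-binding site, had 250, 218 and 177 CPM in pre-NRC starvation, against 253, 253 and 187 CPM in feeding, with a log2 change of −0.10 (SE 0.25). It is named for contrast, after its values were seen.

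CG11455 (ND-15) went against the rest and rested on single libraries. It had 1373, 154 and 106 counts in post-NRC starvation, 720, 131 and 158 counts in pre-NRC starvation and 183, 239 and 153 counts in feeding. Replicate 1 of each starved group was high and the other starved libraries overlapped feeding. Its exons share bases with Pus10 on the opposite strand, and its part in the high counts was not tested. The log2 change in pre-NRC starvation was 0.77 (SE 1.01, edgeR adjusted p = 0.600).

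In complex III 1 of 4 genes tested outside the duplicates fell, with a median log2 change of −0.60, and 2 fell with the replicate block. CG3560 (UQCR-14) had 64.8, 49.1 and 58.3 CPM in pre-NRC starvation, against 120, 128 and 93.4 CPM in feeding, and fell by 0.99 (SE 0.25, edgeR adjusted p = 0.0224). It lost its call without feeding replicate 1, feeding replicate 2 or pre-NRC replicate 2, with an adjusted p of up to 0.0835, and its reads cannot be told apart from those of CG32576 if the counting ignored strand. CG4169 (UQCR-C2) had 288, 251 and 211 CPM in pre-NRC starvation, against 467, 471 and 268 CPM in feeding (log2 change −0.69, SE 0.33, edgeR adjusted p = 0.146, 0.0301 with the replicate block). RFeSP had 230, 226 and 151 CPM in pre-NRC starvation, against 338, 357 and 169 CPM in feeding, and the groups overlapped (edgeR adjusted p = 0.368).

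In complex II, the enzyme shared with the citric acid cycle, 0 of the 3 genes tested outside the duplicates passed in edgeR, with 0 at an unadjusted p below 0.05, 0 in DESeq2, 0 in limma-voom and 1 (SdhC) with the replicate block. The median log2 change was −0.43. SdhA had 96.4, 109 and 128 CPM in pre-NRC starvation, against 143, 137 and 133 CPM in feeding, a log2 change of −0.31 (SE 0.17, edgeR adjusted p = 0.203). The groups lay close but did not overlap. SdhC had 152, 112 and 83.0 CPM in pre-NRC starvation, against 231, 242 and 134 CPM in feeding (log2 change −0.81, SE 0.36, edgeR adjusted p = 0.123, 0.0130 with the replicate block).

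**Figure D4:**
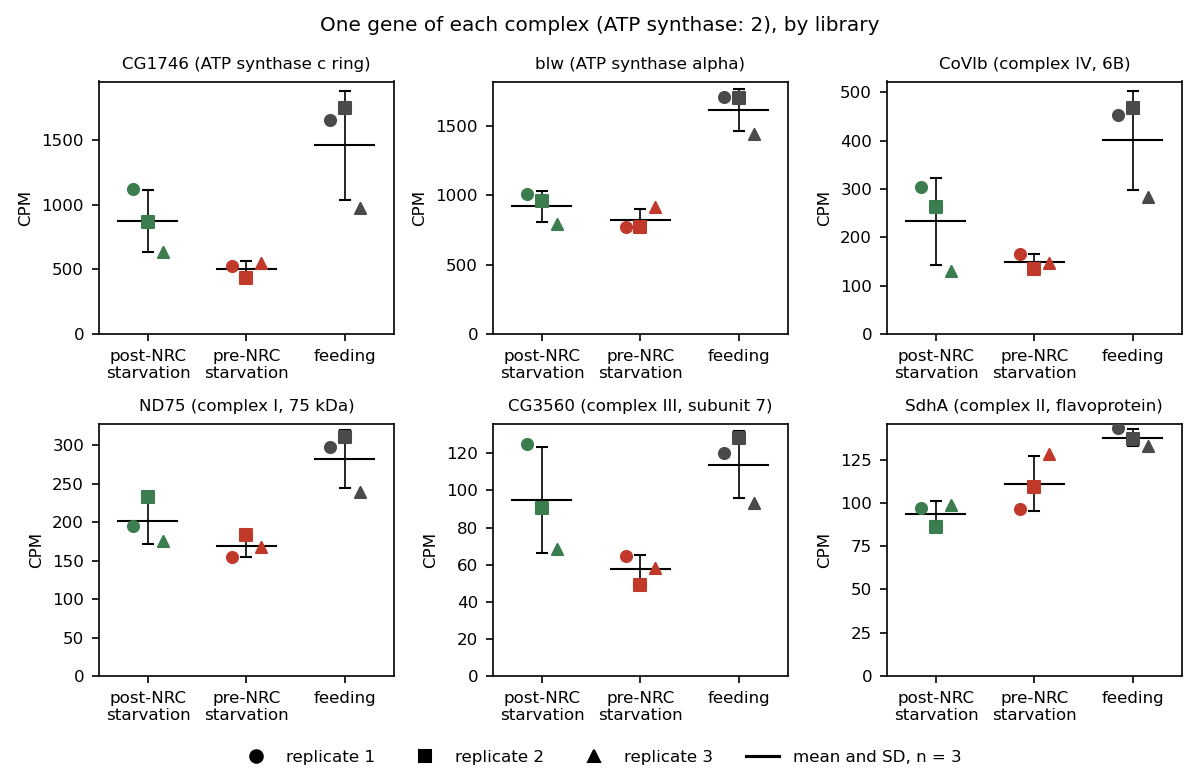
CPM by library for 2 ATP synthase genes and 1 gene each of complexes IV, I, III and II, with the mean and SD of 3 libraries (linear axes from 0). In CG1746, blw, CoVIb, ND75 and CG3560 every pre-NRC library lies below every feeding library, while SdhA is lowest in post-NRC starvation.

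The falls were found both among genes that share exon bases with another gene and among those that share none. Of the 33 genes that share none, 11 fell and the median log2 change was −0.80. Of the 30 tested that share some, 6 fell, with the same median of −0.80.

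In post-NRC starvation 0 of the 69 genes passed against feeding in edgeR, where 0.809% of all genes tested were called. At an unadjusted p below 0.05, 5 were lower and 0 higher, against 5.12% and 9.67% of all genes. DESeq2 called 1 (blw, lower), against 1.26% of all genes lower, limma-voom 0 and the replicate block 0. The median log2 change was −0.25, against 0.02 over all genes tested. In 4 genes (5.80%) all post-NRC libraries lay below all feeding libraries, against 10.3% of all genes. These 4 were blw, SdhA, ND75 and CG1970. The blw values were 1010, 958 and 792 CPM in post-NRC starvation, against 1710, 1700 and 1440 CPM in feeding (log2 change −0.81, SE 0.20, edgeR adjusted p = 0.108, DESeq2 adjusted p = 0.000729). SdhA had 96.9, 85.8 and 98.8 CPM in post-NRC starvation, against 143, 137 and 133 CPM in feeding (log2 change −0.55, SE 0.17, edgeR adjusted p = 0.181).

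By complex the medians were −0.38 in the ATP synthase, −0.43 in complex IV, −0.12 in its assembly factors, −0.14 in complex III, −0.30 in complex II and −0.19 in complex I. CG1746 had 1120, 869 and 638 CPM in post-NRC starvation, against 1660, 1750 and 979 CPM in feeding (log2 change −0.74, SE 0.30, edgeR adjusted p = 0.292), and the groups overlapped. CoVIb had 305, 262 and 131 CPM in post-NRC starvation, against 452, 468 and 283 CPM in feeding, with a log2 change of −0.79 (SE 0.33, edgeR adjusted p = 0.314). The largest fitted rise was that of CG11455, whose values are given above, and the largest fitted fall that of the duplicate CG14508 (Cyt-c1L), with 0, 0 and 11 counts in post-NRC starvation, against 11, 11 and 7 in feeding.

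Between the starved groups, post-NRC against pre-NRC starvation, 0 of the 69 genes passed in edgeR, where 5.19% of all genes tested were called. At an unadjusted p below 0.05, 11 genes were higher and 1 lower in post-NRC starvation, against 12.1% and 14.9% of all genes. DESeq2 called 1 (Oscp, higher), against 4.86% of all genes higher, and limma-voom 0. The median log2 change was 0.57, against −0.02 over all genes tested. In 6 genes (8.70%) all post-NRC libraries lay above all pre-NRC libraries, against 13.7% of all genes. With replicates 1 and 2 alone 37 genes (53.6%) rose, against 15.4% of all genes. Post-NRC replicate 3 lay at or below the highest pre-NRC library in 58 of the 64 genes outside the duplicates. Replicate 1 did so in 4 genes and replicate 2 in 8. These counts include genes below the whole pre-NRC range, such as ATPsyn-beta in replicate 3. For example, levy had 522, 558 and 268 CPM in post-NRC starvation, against 314, 242 and 202 CPM in pre-NRC starvation (log2 change 0.83, SE 0.37, edgeR adjusted p = 0.185).

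Oscp had 388, 370 and 202 CPM in post-NRC starvation, against 187, 141 and 155 CPM in pre-NRC starvation. The groups did not overlap, and the log2 change was 0.99 (SE 0.33, edgeR adjusted p = 0.10, DESeq2 adjusted p = 0.0403). CG1746 and CG3560 also had separate groups, with log2 changes of 0.79 (SE 0.30, edgeR adjusted p = 0.135) and 0.72 (SE 0.25, edgeR adjusted p = 0.114). The catalytic head genes had smaller values, with a log2 change of 0.16 (SE 0.20) for blw, which had 1010, 958 and 792 CPM in post-NRC starvation, against 772, 774 and 918 CPM in pre-NRC starvation. SdhA had a log2 change of −0.24 (SE 0.17). The largest fitted rise was that of the duplicate CG10396 (COX4L), with 44, 62 and 27 counts in post-NRC starvation, against 3, 33 and 22 in pre-NRC starvation, and the largest fitted fall that of CG14508.

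**Figure D5:**
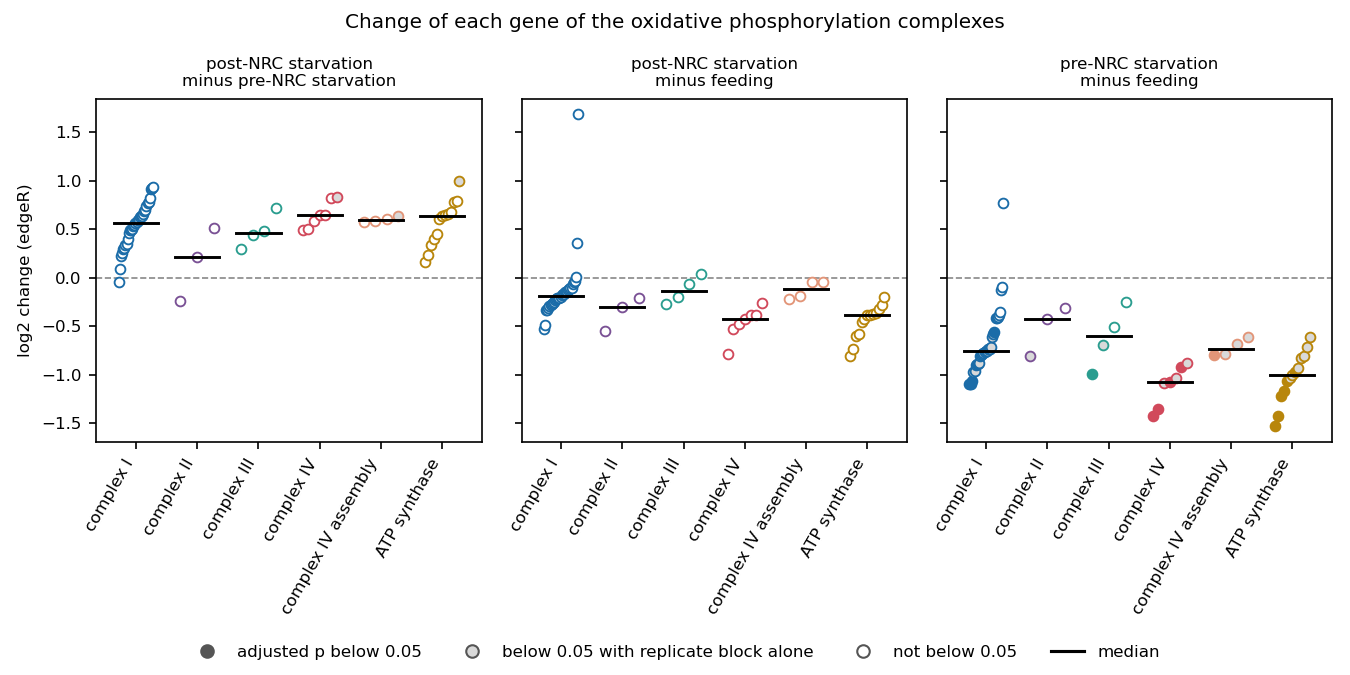
Fitted log2 change of each gene outside the low-level duplicates, by complex, in the 3 comparisons, with the median of each complex as a bar. Filled points passed the adjusted p of 0.05 and grey points passed it only with the replicate block; in pre-NRC starvation against feeding the medians run from −1.07 in complex IV to −0.43 in complex II.

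The remaining genes of the pathway come from lists kept apart from the annotation rule. A set of 12 subunits carries no oxidative phosphorylation annotation in the table; it was gathered by current symbol after values were seen. In pre-NRC starvation 4 of the 12 fell against feeding and 11 fell with the replicate block, while 7 were below an unadjusted p of 0.05, with a median log2 change of −0.87. Of all genes tested 11.5% fell in edgeR, 18.8% fell with the replicate block and 18.3% were lower at an unadjusted p below 0.05. CG7580 (UQCR-Q of complex III) had 132, 100 and 92.6 CPM in pre-NRC starvation, against 318, 323 and 146 CPM in feeding, and fell by 1.28 (SE 0.37, edgeR adjusted p = 0.0346, up to 0.114 without 1 library). The others that fell were Ucrh (UQCR-11), CG7630 (COX7B) and CoVIII (COX8). Each of the 4 lost its call without feeding replicate 1, feeding replicate 2 or pre-NRC replicates 2 or 3, among others. SdhB, the iron-sulfur subunit of complex II, had 188, 171 and 121 CPM in pre-NRC starvation, against 169, 182 and 122 CPM in feeding (log2 change 0.02, SE 0.29).

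Subunits made from the mitochondrial genome were at their highest in post-NRC starvation. The 13 genes summed to 58500, 55600 and 55600 CPM in post-NRC starvation, 48500, 28400 and 29100 CPM in pre-NRC starvation and 41400, 46900 and 37100 CPM in feeding. Without mt:CoIII, described below, feeding replicate 2 summed to 39400 CPM. The largest part of each sum was mt:CoI, while mt:ATPase6 had at most 2.35 CPM and mt:ATPase8 had 1 count in each library. Outside feeding replicate 2 mt:CoIII had 0.458 to 7.29 CPM. The sources used here do not say how reads of these 3 genes were counted. Their values are therefore uncertain as levels, and the part of the counting was not tested. In post-NRC starvation 10 of the 12 tested had all 3 libraries above all feeding libraries, against 13.0% of all genes, with a median log2 change of 0.66, and 0 passed in edgeR (4 higher and 1 lower at an unadjusted p below 0.05, 2 in DESeq2, 0 in limma-voom). mt:Cyt-b, the complex III subunit, had 10700, 11100 and 11000 CPM in post-NRC starvation, against 6980, 6680 and 6490 CPM in feeding, a log2 change of 0.70 (SE 0.19, edgeR adjusted p = 0.135, DESeq2 adjusted p = 9.17e-05). Against pre-NRC starvation 1 of 12 rose in post-NRC starvation, mt:ND2 of complex I (log2 change 1.32, SE 0.30, edgeR adjusted p = 0.0439). Its call held without feeding replicate 3 and was lost without any other library, with an adjusted p of up to 0.152 in edgeR. In pre-NRC starvation the median log2 change against feeding was −0.15. The 1 call there, mt:CoIII, had 2.83, 4.88 and 4.61 CPM in pre-NRC starvation, against 4.6, 7490 and 7.29 CPM in feeding, so it rested on feeding replicate 2 (edgeR adjusted p = 0.0410, 0.308 with the replicate block, up to 0.716 without 1 library).

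Of the electron carriers and transporters, the cytochrome c gene Cyt-c-p had 56.0, 46.6 and 53.9 CPM in pre-NRC starvation, against 201, 198 and 112 CPM in feeding. It fell by 1.71 (SE 0.29, edgeR adjusted p = 0.00580), held when any 1 library was left out, and had 108, 100 and 62.2 CPM in post-NRC starvation. The second cytochrome c gene, Cyt-c-d, had at most 0.472 CPM in any library. Of all genes tested 11.5% fell in pre-NRC starvation, so the 1 fall among 8 carriers and uncouplers is near that share. Among 8 carriers and uncouplers 1 fell in pre-NRC starvation, the ADP/ATP exchanger sesB (log2 change −0.72, SE 0.22, edgeR adjusted p = 0.0415, lost without feeding or pre-NRC replicates 1 or 2 or post-NRC replicates 1 or 2, up to 0.138), and Ucp4A had a log2 change of 0.46 (SE 0.24). Of 6 genes of coenzyme Q synthesis 0 passed in pre-NRC starvation against feeding in edgeR, 0 in DESeq2 and 0 in limma-voom, with 1 at an unadjusted p below 0.05, CG7277 (Coq6, log2 change −0.85, SE 0.32), which fell with the replicate block (adjusted p = 0.00826). COQ7 had a log2 change of 0.87 (SE 0.39, adjusted p = 0.0140 with the replicate block).

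Among 8 assembly factors outside the annotation 3 fell and 1 rose in pre-NRC starvation. Of all genes tested 11.5% fell and 16.1% rose, so 1 call among 8 genes is near those shares. CG4908 (Bcs1, which inserts the Rieske protein into complex III) had 12.8, 9.64 and 11.5 CPM in pre-NRC starvation, against 29.6, 32.6 and 21.3 CPM in feeding, and fell by 1.30 (SE 0.25, edgeR adjusted p = 0.00798). Scox, a copper chaperone of complex IV, fell by 1.49, and CG14898 (Sdhaf3), an assembly factor of complex II, by 1.70, both with calls lost without feeding replicate 1, feeding replicate 2 or pre-NRC replicate 2. Sirup, another factor of complex II, rose, with 1710, 1860 and 493 CPM in pre-NRC starvation, against 107, 111 and 56.2 CPM in feeding (log2 change 3.89, SE 0.76, edgeR adjusted p = 0.00888). Among 8 regulators 1 rose, foxo, the transcription factor active under low insulin signalling, with 114, 144 and 98.5 CPM in pre-NRC starvation, against 34.8, 32.9 and 55.3 CPM in feeding (log2 change 1.54, SE 0.26, edgeR adjusted p = 0.00559). The mitochondrial transcription factor mtTFB2 had a log2 change of −0.60 (SE 0.25, edgeR adjusted p = 0.103). Neither srl, the fly relative of PGC-1, nor TFAM passed, with log2 changes of −0.26 (SE 0.49) and −0.21 (SE 0.23).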

How the data were processed

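Per the labels' protocols, total RNA from pooled glands went into strand-specific libraries, read from both ends on an Illumina HiSeq. Per the submitters' processing notes, the tools were Bowtie, HISAT2, Cufflinks and StringTie and the genome build BDGP6. The sources used here give no versions or roles and no strand setting. The deposited table holds whole-number counts per gene made by the authors, and FPKM values deposited beside them. Columns with a wild-type name and 108 h carry no checkpoint term. By elimination they were read as feeding, and the number in the name as the replicate.

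Counts were scaled by TMM factors and filtered with filterByExpr, which left 10883 genes. The quasi-likelihood test of edgeR 4.0.16 (R 4.3.3) used all 9 libraries, a mean per group and two-sided p-values, Benjamini-Hochberg adjusted across the genes tested and called below 0.05. The biological coefficient of variation was 50.6%. Each standard error (SE) is the fitted change divided by the root of its F statistic. The script was tested on simulated data. FPKM served for levels between genes and, as log2(FPKM + 1) and log2(FPKM + 0.1) in limma 3.58.1, as alternatives, beside DESeq2 1.42.0, limma-voom, other scalings and filters, the replicate block and left-out libraries. Libraries of a group differed by more than sampling noise (chi-square per degree of freedom at least 64.9), so none was counted as a repeat in the reported fit. This measure is a mean over genes, and single genes far apart can raise it. mt:CoIII, for instance, had 147 and 247795 counts in feeding replicates 1 and 2. The measure cannot show that 2 libraries came from separate pools, which was not tested.

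Same-number libraries of a starved group and feeding deviated together, with correlations of 0.1257, 0.1192 and 0.2966 in post-NRC and 0.1632, 0.1165 and 0.3018 in pre-NRC starvation, so the numbers were taken to pair them, from the data and not the labels. Pairs of unlike number among replicates 1 and 2 reached 0.1251, above some same-number pairs, and pairs of replicate 3 with replicates 1 or 2 were all negative. The correlations thus set replicate 3 apart and do not show that replicates 1 and 2 pair by number. The results with the replicate block rest on this pairing.

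Complexes were assigned by KEGG orthologue, and gene names follow the deposited table, with current symbols from the reference gene name table in parentheses. Positions are from annotation BDGP6.54, which holds all 85 identifiers. Named were up to 3 genes per complex with the smallest p past the threshold, the 2 highest and the lowest in feeding, the largest fitted rise and fall per comparison and 2 per other list. Genes named to complete a count of 5 or fewer, and CG9140, ATPsyn-beta, ATPsyn-Cf6, ATPsyn-d, CG3321, CoVa, CG1970, CG12400, SdhB, mt:Cyt-b, srl and TFAM, were chosen after their values were seen. The genes, lists and tests were chosen with earlier results of these data known. Of the list genes 103 were found and 2 were not. Other marker lists were those of corpora allata, fat body, muscle, neuron, haemocyte, trachea, salivary gland and gut. Sequences were not used here.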

Additional observations from a re-analysis of the deposited data

Results flagged for a closer look

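The difference between the starved groups passed the edgeR test for 3 genes of the pathway outside the annotated nuclear set, whose differences from the shared feeding libraries were thus unequal in the 2 starved groups. Starvation and age cannot be told apart in them. mt:ND2 had 397, 562 and 659 CPM in post-NRC starvation, against 267, 187 and 196 CPM in pre-NRC starvation (log2 change 1.32, edgeR adjusted p = 0.0439, up to 0.152 and called only without feeding replicate 3). CG9090 (Mpcp1, a phosphate carrier) had 2.45, 7.94 and 4.43 CPM in post-NRC starvation, against 29.8, 29.4 and 20.3 CPM in pre-NRC starvation (log2 change −2.42, edgeR adjusted p = 0.0309, up to 0.117 and not called without replicates 1 or 2 of feeding or pre-NRC starvation or post-NRC replicates 1 or 3). foxo had 39.9, 53.6 and 47.1 CPM in post-NRC starvation, against 114, 144 and 98.5 CPM in pre-NRC starvation (log2 change −1.34, edgeR adjusted p = 0.0353, up to 0.145 and called only without feeding replicate 3 or pre-NRC replicate 3).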

How the results depend on the processing

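In pre-NRC starvation against feeding, the number of nuclear genes called was 17 in the reported fit, 26 with DESeq2, 48 with the replicate block, 52 with replicates 1 and 2 alone, 2 with feeding replicates 1 and 2 summed, 30 with log2(FPKM + 1), 29 with log2(FPKM + 0.1) without a filter, and 2 to 29 when 1 library was left out. Over all genes the calls were 4598 with replicates 1 and 2 alone, 1263 with feeding replicates summed and 1166 to 3404 when 1 library was left out. In post-NRC starvation against feeding, 1 nuclear gene was called with DESeq2 and 1 with replicates 1 and 2 alone, and 0 when 1 library was left out. Over all genes there were 725 calls with DESeq2, 41 with limma-voom, 42 with only the 2 groups compared, 193 with the replicate block, 741 with replicates 1 and 2 alone, 18 with feeding replicates summed and 14 to 171 when 1 library was left out. In post-NRC against pre-NRC starvation, 1 nuclear gene was called with DESeq2, 4 with the replicate block and 37 with replicates 1 and 2 alone, and 0 when 1 library was left out. Over all genes there were 1858 calls with DESeq2, 79 with only the 2 groups compared, 1512 with the replicate block, 3041 with replicates 1 and 2 alone, 51 with feeding replicates summed, 1121 with log2(FPKM + 1), 850 with log2(FPKM + 0.1) without a filter and 6 to 1551 when 1 library was left out. There same-number correlations were 0.0998, 0.1495 and 0.3648, so the numbers were not taken to pair these libraries. This choice is open to doubt, since both starved groups were paired with feeding by the same numbers. The cause of these differences was not tested. For single named genes 1583 alternative values kept direction and side of the threshold, 44 lost the call, 46 gained one and 0 changed sign with a call.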

Other observations

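Markers of other cell types were counted in all groups and none was at 0 throughout. Fat body markers summed to 474 to 1640 CPM in post-NRC starvation, 140 to 2190 CPM in pre-NRC starvation and 650 to 1750 CPM in feeding, each time with replicate 3 as the highest library. Muscle and aorta markers summed to 1800 to 3960, 6980 to 10100 and 5040 to 5290 CPM in the same order, haemocyte markers to 550 to 925, 1430 to 2470 and 301 to 920 CPM, and corpora allata markers to 558 to 636, 620 to 898 and 760 to 788 CPM. Neuron markers summed to 50.2 to 112, 92.8 to 115 and 39.9 to 91.7 CPM, trachea markers to 96.2 to 249, 56.3 to 141 and 173 to 271 CPM, salivary gland markers to 21.5 to 2260, 3.86 to 61.4 and 236 to 1740 CPM, and gut markers to 231 to 352, 248 to 334 and 171 to 424 CPM. The part of these cell types in the levels of the nuclear oxidative phosphorylation genes was not tested.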
